A study of Bos taurus with 6 samples.

Results

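Genes annotated with protein kinase activity were compared between Angus and Chinese Simmental cattle in RNA sequencing of longissimus dorsi, the long back muscle, sampled at ribs 12 and 13 from cattle aged 18 months. Each breed had 3 libraries, and no treatment or mutation is given for either. Whether the samples were separate animals is not in the labels, so each p-value covers only the scatter between samples, which may be technical. Intramuscular fat content is the subject given by the title. Members were the rows of the deposited table whose Gene Ontology text contains a protein kinase, protein serine/threonine kinase or protein tyrosine kinase activity. Of 2040 listed genes 97 matched, and 82 remained after leaving out 13 provisional or assembled names, CCL8, which had no reads in 1 breed, and ACVR2B. The matching was on text, so it also caught terms for the regulation of kinases. Of the 82 genes, 47 carried a kinase activity term of their own and 35 matched only inside a longer term such as a negative regulation of kinase activity. A kinase domain was named in the table's Pfam column for 40 of the 82. The set is therefore described below as 44 genes found in lists of kinases, by family, and 38 others, among them ligands, inhibitors, adaptors, lipoprotein receptors and transcription factors. A further 15 listed genes had a kinase domain but were not members. Of these, 4 (26.7%, against 24.9% of all listed genes tested) had the higher level in Angus. The other 11 (73.3%, against 75.0%) had it in Chinese Simmental, so the split lay near that of the table.

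Protein kinases transfer phosphate from ATP to serine, threonine or tyrosine residues and so switch other proteins on or off. Receptor tyrosine kinases read growth factors at the cell surface, cytoplasmic tyrosine kinases serve receptors that have no catalytic domain, and the MAP kinase cascades carry signals to the nucleus. In skeletal muscle, calcium-calmodulin and AMP-activated kinases couple contraction and energy supply to gene activity, and in blood cells the Src family kinases act downstream of immune receptors.

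All genes in the table had passed a selection by the authors, since the smallest absolute log2 fold change in the authors' deposited table was 1.00 and the largest adjusted p was 0.0492. For the members, the authors' deposited table gave adjusted p between 2.27e-16 and 0.0489. Every test below therefore describes genes chosen for differing between these same libraries and is no independent evidence of a difference. Counts over the listed genes summed to 12010803 to 15699184 in Angus against 12799174 to 28883725 in Chinese Simmental. How deeply the libraries were sequenced in full is unknown. Values are normalised counts, that is counts divided by the authors' size factors, and log2 fold changes are Angus over Chinese Simmental ± standard error (SE), so a negative one means higher in Chinese Simmental. With 3 libraries against 3, an exact permutation test of a single gene could not give a p below 0.1 and none was run. Cell markers differed between the breeds too. All 13 myeloid markers in the table, of 18 fixed, were higher in Chinese Simmental, and their summed level was 70912 to 125291 in Angus against 786797 to 1452760 in Chinese Simmental. All 9 B cell markers in the table, of 12, were higher in Angus, with sums of 197428 to 272400 in Angus against 51379 to 78248 in Chinese Simmental. Of 17 muscle fibre markers only NEB and TNNT3 were in the table, with sums of 1461 to 2478 in Angus against 365 to 771 in Chinese Simmental, and the level of the other muscle markers is unknown here. Of 14 T and natural killer cell markers 5 were in the table, at 10629.7 to 11490.5 in Angus against 14512 to 37749.7 in Chinese Simmental. Of 12 adipocyte markers 2 were in the table, at 16431 to 45850.3 in Angus against 90598 to 187690 in Chinese Simmental. Of 17 endothelial, fibroblast, platelet and erythroid markers 2 were in the table, at 2200.2 to 3716 in Angus against 2974 to 16654 in Chinese Simmental. No listed marker was at 0 in every library of a breed. In every library the sum of the 2 muscle fibre markers lay far below the sums of the 13 myeloid and the 9 B cell markers. These sums are not scaled for gene length, and how much of the RNA came from muscle fibres was not tested. In pieces of tissue, fewer cells of a type and less RNA per cell cannot be told apart, and the part of these cell markers in the kinase results was not tested.

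Most of the 82 genes had more RNA in Chinese Simmental, as had most of the table. By the quasi-likelihood test of edgeR, Benjamini-Hochberg adjusted over the 1989 genes tested, all 82 passed an adjusted p of 0.05, as did 99.9% of the genes tested. Angus was the higher breed for 13 members (15.9%, against 24.9% of the genes tested) and Chinese Simmental for 69 (84.1%, against 75.0%). The median log2 fold change was -1.65 over the members and -1.57 over all tested genes, so the members lay near the background of the table. The breeds did not overlap in any library for 75 members (91.5%), against 90.6% of all tested genes. Of the 44 genes in kinase lists, 5 had the higher level in Angus and 39 in Chinese Simmental. Of the 38 others, 8 had it in Angus and 30 in Chinese Simmental. With 1 library left out, 49 members kept their call in all 6 fits, 4 of the 13 higher in Angus and 45 of the 69 higher in Chinese Simmental. The number called higher in Angus became 7 (8.54%) without Angus replicate 1, without Angus replicate 2 or without Chinese Simmental replicate 3. Of all tested genes, 19.4% were still called higher in Angus without Angus replicate 1, 15.1% without Angus replicate 2 and 17.8% without Chinese Simmental replicate 3. Scaling factors computed over the listed genes (TMM) moved all log2 fold changes toward Angus by a median of 1.36. They left 10 members (12.2%, against 13.2% of the genes tested) called higher in Chinese Simmental, while 12 of the 69 turned toward Angus. In all, 59 members lost their call with these factors, and below most are not marked where the direction held. Calls said below to be kept or lost refer to fits without 1 library, unless another setting is named.

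**Figure D1:**
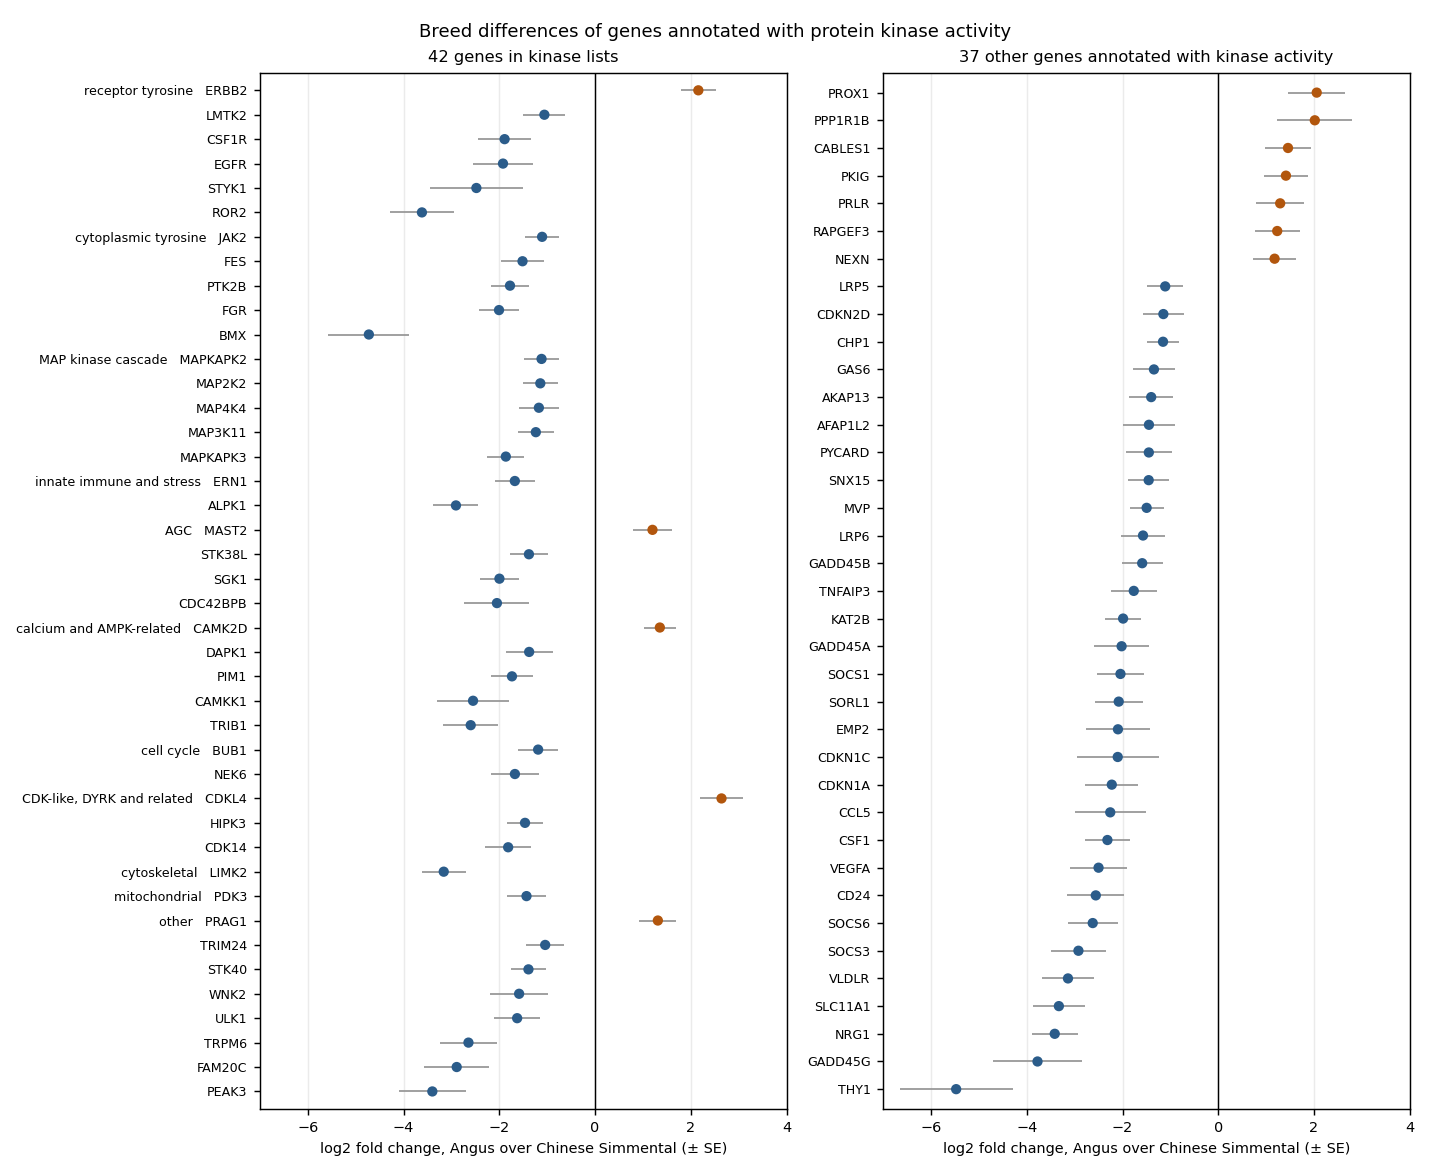
Log2 fold change of 79 of the 82 genes, Angus over Chinese Simmental, with bars of ± SE from 3 libraries per breed, orange where positive (Angus) and blue where negative (Chinese Simmental). The left panel holds 42 genes in kinase lists, grouped by family, and the right panel 37 others, and 12 of the blue genes turned with TMM factors over the listed genes.

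Receptor tyrosine kinases went both ways. ERBB2, the member of the epidermal growth factor receptor family that pairs with the neuregulin receptors, stood at 5400.5, 6258 and 6528 normalised counts in Angus replicates 1 to 3 and at 1635, 1437 and 1002 in Chinese Simmental replicates 1 to 3. The breeds did not overlap, and every Angus library was more than 3 times above every Chinese Simmental library. Its level was 4.46-fold higher in Angus, at a log2 fold change of 2.16 ± 0.36 (adjusted p = 0.00331, edgeR quasi-likelihood test), and this call held with each library left out. Of the 6 members in the list of receptor tyrosine kinases, only ERBB2 was higher in Angus. The other 5, LMTK2 and the kinase-like STYK1 included, had their higher level in Chinese Simmental. CSF1R, the receptor that keeps macrophages alive, stood at 6985, 1619.7 and 5284 in Angus libraries and at 19926, 10916 and 20618 in Chinese Simmental libraries. It is a myeloid marker as well, and replicate 2 was the lowest library in both breeds. ROR2, a receptor for WNT5A, was scarce in Angus, at 15.4, 19.98 and 13.8, and stood at 363, 115 and 128 in Chinese Simmental libraries. Its 12.3-fold difference rested in part on Chinese Simmental replicate 1, without which the log2 fold change went to -2.88 from -3.62 ± 0.67. On the log2(FPKM + 1) scale, where ROR2 was low in both breeds, the difference was -0.72 and the call was lost (adjusted p = 0.0601, limma). With log2(FPKM + 0.1) the difference of ROR2 was -2.04 and its call was kept (adjusted p = 0.0207, limma).

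The epidermal growth factor receptor itself, EGFR, lay low at 8.56, 9.99 and 17.7 in Angus libraries and 43.1, 60.5 and 35.0 in Chinese Simmental libraries. Its direction was opposite to that of ERBB2, its family partner. The call for EGFR was lost without Angus replicate 1 (-1.72), Angus replicate 2 (-1.81) or Chinese Simmental replicate 2 (-1.68). LMTK2, a transmembrane kinase of endosomal traffic, was 2.08-fold higher in Chinese Simmental at -1.06 ± 0.44 (adjusted p = 0.0377, edgeR), a difference that turned to 0.29 with TMM factors over the listed genes and lost its call in 5 of the 6 fits without 1 library, all but that without Chinese Simmental replicate 1, with -0.57 without Chinese Simmental replicate 2. STYK1, a kinase-like transmembrane protein, overlapped between breeds, at 32.5, 25.0 and 6.89 in Angus libraries and 114, 234 and 13.6 in Chinese Simmental libraries. Its call was lost without replicate 2 (-2.60) or 3 (-2.06) of Angus, or without Chinese Simmental replicates 1 (-2.52) or 2 (-1.56).

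All 6 cytoplasmic tyrosine kinases were higher in Chinese Simmental with the authors' size factors, and all but JAK2 also with TMM factors over the listed genes. With the authors' size factors, 75.0% of all genes tested were called higher in Chinese Simmental. The myeloid markers were higher there as well (13 of 13 in the table). BMX, a kinase of the TEC family found in endothelium and granulocytes, stood at 35.9, 57.4 and 169 in Angus libraries and at 586, 2619 and 3754 in Chinese Simmental libraries. The highest Angus library lay below the lowest Chinese Simmental library, and both breeds spread widely. BMX was 26.5-fold higher in Chinese Simmental, the largest difference among the 44 genes in kinase lists, at -4.72 ± 0.84, and went to -5.64 without Angus replicate 3.

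FGR, a Src family kinase which acts downstream of integrins and Fc receptors in neutrophils and macrophages, stood at 14509, 11212 and 12302 in Angus libraries and at 33533, 50998 and 68186 in Chinese Simmental libraries. Replicate 2 was its lowest Angus library, no Chinese Simmental library reached down to Angus, and the mean was 4.02-fold higher in Chinese Simmental. PTK2B, the calcium-responsive relative of focal adhesion kinase, stood at 14849, 14941 and 17919 in Angus libraries and at 36944, 65056 and 61456 in Chinese Simmental libraries. FES, a kinase of myeloid and endothelial cells, was 2.86-fold higher in Chinese Simmental at 4355, 2304 and 2064 in Angus libraries and 7852, 5478 and 11606 in Chinese Simmental libraries. The adjusted p of FGR, PTK2B and FES ran from 0.00452 to 0.0125 in the edgeR test, and none lost its call with 1 library left out.

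JAK2, the kinase bound to many cytokine receptors, had the smallest difference of the group, at 2504, 2354 and 2882 in Angus libraries and 3771, 5896 and 6996 in Chinese Simmental libraries. Its log2 fold change of -1.11 ± 0.36 (adjusted p = 0.0180, edgeR) lost its call without Angus replicate 1 (-1.08), Angus replicate 2 (-1.04) or Chinese Simmental replicate 3 (-0.91), and turned to 0.28 with TMM factors over the listed genes.

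**Figure D2:**
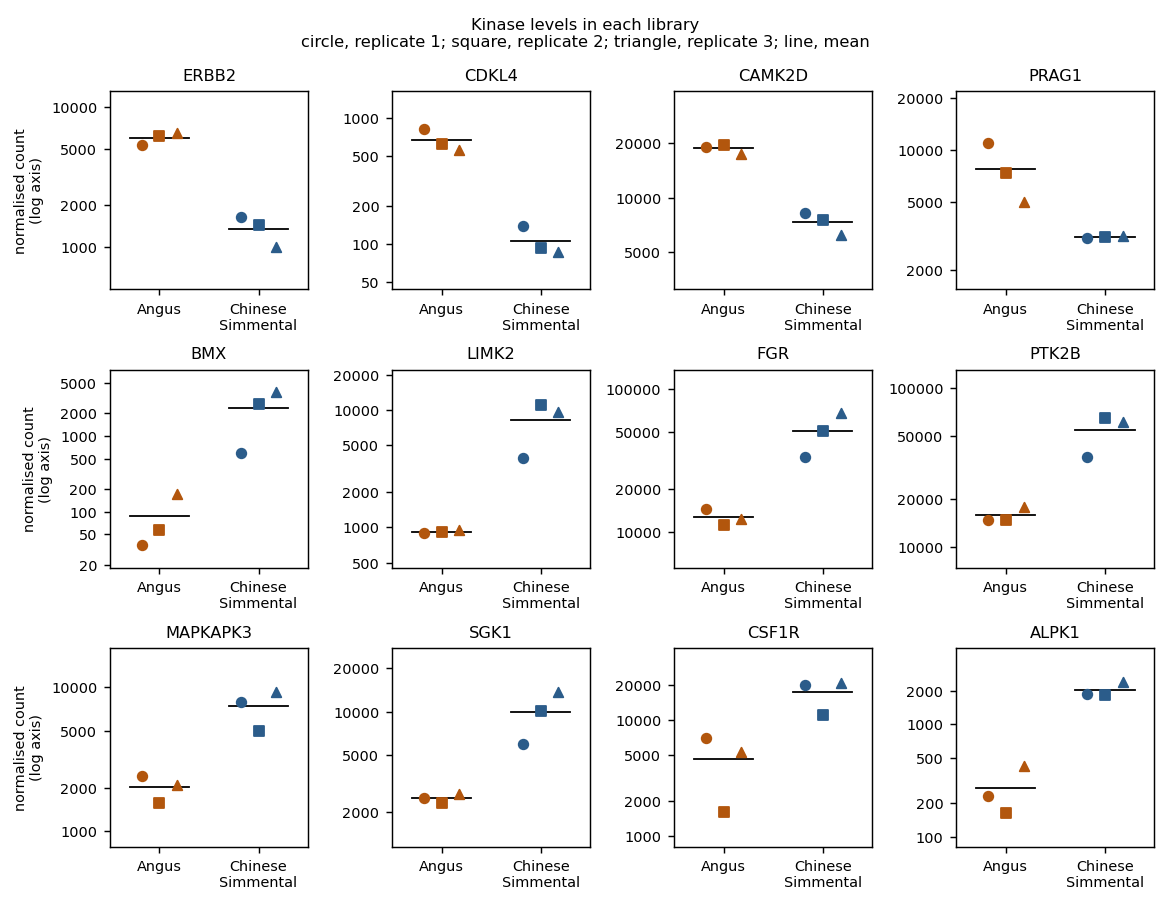
Normalised counts of 12 kinases in each of the 6 libraries, on log axes that differ between panels, with Angus on the left and Chinese Simmental on the right of each panel and a line at the mean of 3 libraries. The 4 genes of the top row were higher in Angus and the 8 below higher in Chinese Simmental, with no overlap between breeds in any panel.

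The MAP kinase cascade was represented at several steps, with 11 listed genes in the table. Of these, 1 was called higher in Angus (MAP4K3, no member) and 10 in Chinese Simmental. Of all genes tested, 24.9% were called higher in Angus and 75.0% in Chinese Simmental. The 6 members were higher in Chinese Simmental by 2.17-fold to 3.64-fold with the authors' size factors, while with TMM factors over the listed genes MAP4K4, MAP3K11, MAP2K2 and MAPKAPK2 turned to log2 fold changes between 0.15 and 0.24. MAP2K2 (MEK2), which phosphorylates the ERK kinases, stood at 10025, 8463 and 8473 in Angus libraries and at 16422, 17422 and 25703 in Chinese Simmental libraries. The Angus libraries were close to each other, while replicate 1 was the lowest and replicate 3 the highest Chinese Simmental library. MAPKAPK3 and MAPKAPK2 are substrates of p38 that carry its signal to messenger RNA stability. MAPKAPK3 stood at 2429, 1566 and 2091 in Angus libraries and 7839, 4982 and 9328 in Chinese Simmental libraries, at a log2 fold change of -1.86 ± 0.39. MAPKAPK2 stood at 12961, 12051 and 16079.5 in Angus libraries and 25079, 31125 and 32960.1 in Chinese Simmental libraries, at -1.12 ± 0.36.

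MAP3K11, a mixed lineage kinase upstream of JNK, stood at 4401, 3027 and 3799.8 in Angus libraries and at 7223, 6931 and 12306 in Chinese Simmental libraries. MAP4K4, a STE20 kinase further upstream, stood at 16083, 15985 and 16958 in Angus libraries and at 20992, 40303 and 49262 in Chinese Simmental libraries, 2.26-fold higher. Adjusted p-values of the 6 members ran from 0.00452 to 0.0226 in the edgeR test, without overlap between breeds. Calls were lost for MAP3K11 without Angus replicate 2 (-1.11), for MAP2K2 without Angus replicates 2 or 3 (-1.10 in both), and for MAPKAPK2 without Angus replicates 1 (-1.08) or 2 (-1.03). MAP4K4 lost its call in 5 fits, all but that without Chinese Simmental replicate 1, and stood at -0.91 without Chinese Simmental replicate 3. MAPKAPK3 kept its call with each library left out.

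The kinases of innate immunity and stress were ALPK1, which senses a bacterial sugar metabolite, and ERN1 (IRE1), the sensor of unfolded proteins in the endoplasmic reticulum. ALPK1 stood at 229, 162 and 421 in Angus libraries and at 1865, 1840.2 and 2386 in Chinese Simmental libraries. The Chinese Simmental libraries lay close together, and the breeds were far apart. ERN1 stood at 1066, 527 and 909 in Angus libraries and at 2443, 2182 and 3370.1 in Chinese Simmental libraries. Both were called in the edgeR test (adjusted p = 0.00302 for ALPK1 and 0.00707 for ERN1), at log2 fold changes of -2.91 ± 0.47 for ALPK1 and -1.68 ± 0.41 for ERN1, and kept their calls with each library left out.

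Among the AGC kinases, 3 were higher in Chinese Simmental and 1 in Angus. SGK1, a kinase induced by glucocorticoids and serum, stood at 2510.2, 2315 and 2684 in Angus libraries and at 5999.9, 10174 and 13805 in Chinese Simmental libraries. The Angus libraries differed little, and the lowest Chinese Simmental library, replicate 1, lay clear of them. MAST2, a microtubule-associated kinase, went the other way, at 5944, 5689.7 and 2862 in Angus libraries and 2778, 1646 and 1885 in Chinese Simmental libraries. Angus replicate 3 stood just above Chinese Simmental replicate 1, and the call for MAST2 was lost without replicate 1 (1.02) or 2 (1.07) of Angus, or without Chinese Simmental replicates 2 (1.05) or 3 (1.13). STK38L (NDR2), a kinase of the Hippo group, stood at 1669, 1487 and 1725 in Angus libraries and at 2458, 4501 and 5753 in Chinese Simmental libraries. Its log2 fold change was -1.38 ± 0.40 and turned to 0.03 with TMM factors over the listed genes. CDC42BPB, which acts on myosin, stood at 107, 23.7 and 62.0 in Angus libraries and at 430.1, 135 and 238 in Chinese Simmental libraries. Its call was lost without replicate 2 (-1.66) or 3 (-2.02) of Angus, or without Chinese Simmental replicate 1 (-1.53). MAST2 was named after its values were seen.

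The list of calcium, calmodulin and AMPK-related kinases, which also took in PIM1 and TRIB1, held 5 members. CAMK2D was higher in Angus and the remaining 4 in Chinese Simmental. CAMK2D, a calcium-calmodulin kinase of muscle and many other tissues, was the most counted kinase higher in Angus, at 19162, 19530.5 and 17550.2 in Angus libraries and at 8252, 7555 and 6195 in Chinese Simmental libraries. The libraries of each breed lay close together and the breeds were apart by more than 2-fold throughout. Its log2 fold change was 1.35 ± 0.34 (adjusted p = 0.00771, edgeR), and the call held with each library left out. TRIB1, a pseudokinase that sends C/EBP alpha for degradation, stood at 1427, 2084 and 1950.1 in Angus libraries and at 3642, 10438 and 18970.0 in Chinese Simmental libraries. Its level in the Chinese Simmental libraries spread more than 5-fold, and without replicate 3 the log2 fold change went to -1.95 from -2.60 ± 0.57. PIM1, a kinase induced through cytokine receptors and STAT factors, stood at 4342, 3871 and 4311 in Angus libraries and at 6732, 17841 and 17130.1 in Chinese Simmental libraries. CAMKK1, an activator of other calcium-calmodulin kinases, overlapped between breeds, since Angus replicate 3 stood at 257 and Chinese Simmental replicate 1 at 190.3. It was at -2.55 ± 0.74, and at -3.18 without Angus replicate 3. DAPK1, a kinase of cell death pathways, was 2.60-fold higher in Chinese Simmental and lost its call without replicate 2 (-1.09) or 3 (-1.30) of Angus, or without Chinese Simmental replicate 3 (-1.0).

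Of the cyclin-dependent and related kinases, CDKL4 had the largest difference toward Angus of all 82 genes. CDKL4, a little studied relative of the cyclin-dependent kinases, stood at 825, 623 and 555 in Angus libraries and at 139.8, 93.5 and 87.4 in Chinese Simmental libraries. It was 6.25-fold higher in Angus, at 2.64 ± 0.45 (adjusted p = 0.00341, edgeR), with no overlap and no lost call. HIPK3, a nuclear kinase, stood at 3231, 3298 and 4471 in Angus libraries and at 7167, 12209 and 10945 in Chinese Simmental libraries, 2.76-fold higher at -1.46 ± 0.37. On the log2(FPKM + 1) scale the difference of HIPK3 was -0.54 and its call was lost (adjusted p = 0.273, limma), with Angus replicate 2 at 11.9 FPKM inside the Chinese Simmental range of 7.80 to 13.3 FPKM. CDK14, a cyclin Y partner of Wnt signalling, stood at 320.1, 339.7 and 305 in Angus libraries and at 716, 1864 and 816 in Chinese Simmental libraries, where replicate 2 was more than 2-fold above the others. Of the mitotic kinases, BUB1 of the spindle checkpoint stood at 435, 789 and 577 in Angus libraries and 1689, 940.3 and 1476 in Chinese Simmental libraries. BUB1 turned to 0.13 with TMM factors over the listed genes, and its call was lost without replicate 1 (-1.0) or 3 (-1.16) of Angus, or without Chinese Simmental replicate 3 (-1.13). NEK6, a mitotic kinase of the NIMA family, stood at 1257, 567 and 591 in Angus libraries and at 1621, 2033 and 4055 in Chinese Simmental libraries. Its log2 fold change was -1.67 ± 0.50 and lost its call without Chinese Simmental replicate 3 (-1.18).

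LIMK2, which phosphorylates the actin-severing protein cofilin, showed tight Angus libraries at 897, 902 and 956 and Chinese Simmental libraries at 3905, 11062 and 9670.4. The lowest Chinese Simmental library was more than 4 times above the highest Angus library. LIMK2 was 8.94-fold higher in Chinese Simmental at -3.16 ± 0.46, with the smallest adjusted p of the kinases (0.00217, edgeR), and held its call with each library left out. PDK3, which switches off pyruvate dehydrogenase in mitochondria, was 2.70-fold higher in Chinese Simmental at 1656, 2352 and 2168 in Angus libraries and 3156, 5722 and 7782 in Chinese Simmental libraries.

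Among the remaining kinases, PRAG1 was higher in Angus and the remaining 7 in Chinese Simmental. PRAG1 and PEAK3 belong to 1 family of pseudokinase scaffolds and differed in opposite directions. PRAG1 stood at 11020.1, 7363 and 4957 in Angus libraries and at 3092, 3124 and 3181 in Chinese Simmental libraries. The 3 Chinese Simmental libraries were almost equal while the Angus libraries spread more than 2-fold, and without Angus replicate 1 the call was lost at 0.98. PEAK3 stood at 78.7, 199 and 279 in Angus libraries and at 678, 1686 and 3498 in Chinese Simmental libraries, at -3.40 ± 0.70 and at -2.67 without Chinese Simmental replicate 3. TRPM6, a magnesium channel fused to an alpha-kinase, stood at 230.2, 76.2 and 133 in Angus libraries and at 432, 1049 and 1272 in Chinese Simmental libraries. FAM20C, which phosphorylates secreted proteins in the Golgi, stood at 195, 46.2 and 55.1 in Angus libraries and at 1046, 370.2 and 791 in Chinese Simmental libraries. Its log2 fold change went to -3.86 without Angus replicate 1, from -2.89 ± 0.68. ULK1, which starts autophagy, and STK40 were 3.09-fold and 2.62-fold higher in Chinese Simmental. WNK2, a kinase of ion transport, and TRIM24, a chromatin reader whose own kinase annotation had no kinase domain beside it, lost their calls in 4 fits each, WNK2 without replicates 2 or 3 of either breed (-1.67 to -1.06) and TRIM24 without any Angus library or Chinese Simmental replicate 3 (-1.21 to -0.70). TRIM24 turned to 0.345 with TMM factors over the listed genes.

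Among the 38 genes in no kinase list were 4 ligands of receptor tyrosine kinases, NRG1, CSF1, GAS6 and VEGFA, and each was higher in Chinese Simmental. Apart from NRG1, they and CCL5 were named after their values were seen. NRG1 (neuregulin), whose receptors pair with ERBB2, stood at 173, 89.9 and 190.0 in Angus libraries and at 1209, 1456 and 2181 in Chinese Simmental libraries. It was 10.7-fold higher in Chinese Simmental, at -3.42 ± 0.48 (adjusted p = 0.00217, edgeR). CSF1, the ligand of CSF1R, stood at 151, 104 and 196 in Angus libraries and at 763, 510.5 and 972 in Chinese Simmental libraries, 4.99-fold higher in Chinese Simmental, and CSF1R was 3.71-fold higher there. GAS6, the ligand of the AXL and MERTK receptors, was 2.54-fold higher in Chinese Simmental and lost its call without replicate 2 (-1.22) or 3 (-1.23) of Angus, or without Chinese Simmental replicate 2 (-0.91). VEGFA, the main growth factor of blood vessels, stood at 188, 87.4 and 123 in Angus libraries and at 275, 962 and 1025 in Chinese Simmental libraries. The chemokine CCL5, which carries a kinase activity term without a kinase domain, overlapped between breeds at 4064, 4064 and 2771 in Angus libraries and 3231, 11387 and 37490.4 in Chinese Simmental libraries. Without Chinese Simmental replicate 3 the log2 fold change of CCL5 went to -1.01 from -2.26 ± 0.74 and its call was lost, as it was without Angus replicate 3 (-2.10).

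SOCS1, SOCS3 and SOCS6, which restrain signalling from cytokine and growth factor receptors, were higher in Chinese Simmental, and with the CDK inhibitors they were named after their values were seen. SOCS3 stood at 1636, 2295 and 4832 in Angus libraries and at 10452, 32637 and 23338 in Chinese Simmental libraries. SOCS1 stood at 929, 568 and 1064 in Angus libraries and at 1563, 4473 and 4527 in Chinese Simmental libraries. SOCS6 stood at 100.1, 36.2 and 79.7 in Angus libraries and at 490.0, 394 and 453 in Chinese Simmental libraries, which lay close together. These 3 differences, of 4.12-fold to 7.58-fold, kept their calls with each library left out (adjusted p = 0.00417 to 0.00681, edgeR). The CDK inhibitor CDKN1A (p21), a target of p53, stood at 839.6, 1208 and 1875 in Angus libraries and at 2305, 6234 and 9803 in Chinese Simmental libraries. CDKN2D and CDKN1C, also inhibitors of cyclin-dependent kinases, overlapped between breeds. CDKN2D, at -1.15 ± 0.43, turned to 0.27 with TMM factors over the listed genes and lost its call in 5 fits, all but that without Chinese Simmental replicate 1, with -0.86 without Chinese Simmental replicate 3. CDKN1C, at -2.10 ± 0.85, lost its call in 4 fits, without replicates 2 or 3 of either breed, with -1.32 without Chinese Simmental replicate 3, and stood at -2.99 without Angus replicate 1.

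The 3 GADD45 genes were grouped, and GADD45A and GADD45B named, after their values were seen. The GADD45 genes encode stress-induced proteins that bind the kinase MAP3K4 and the CDK1 complex, and each was higher in Chinese Simmental without overlap. GADD45A stood at 849, 1325 and 1709 in Angus libraries and at 1721, 5378 and 8652 in Chinese Simmental libraries. GADD45B stood at 1082, 1020.3 and 1014 in Angus libraries and at 1682, 3223 and 4478 in Chinese Simmental libraries. GADD45G stood at 116, 71.2 and 296 in Angus libraries and at 353, 1548 and 4744 in Chinese Simmental libraries. In all 3 genes replicate 1 was the lowest and replicate 3 the highest Chinese Simmental library. GADD45G was at -3.78 ± 0.92, at -2.56 without Chinese Simmental replicate 3 and at -4.56 without Angus replicate 3. TNFAIP3, which ends NF-kappa B signalling, was 3.40-fold higher in Chinese Simmental.

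The 8 genes in no kinase list that were higher in Angus included regulators of cyclic AMP signalling. PPP1R1B (DARPP-32), which becomes a phosphatase inhibitor once protein kinase A has phosphorylated it, stood at 9565, 3312 and 6108 in Angus libraries and at 1662, 2827 and 204 in Chinese Simmental libraries. The Chinese Simmental libraries spread more than 10-fold, and the breeds were separated only narrowly by Angus replicate 2 and Chinese Simmental replicate 2. The log2 fold change of PPP1R1B was 2.02 ± 0.78, went to 2.76 without Chinese Simmental replicate 2, and lost its call without replicate 1 (1.59) or 3 (2.04) of Angus, or without Chinese Simmental replicate 1 (2.06). PKIG, an inhibitor of protein kinase A, stood at 498, 493 and 446 in Angus libraries and at 129, 272 and 138 in Chinese Simmental libraries, and lost its call without Chinese Simmental replicate 3 (1.25). RAPGEF3 (EPAC1), a cyclic AMP-gated exchange factor, was 2.35-fold higher in Angus and lost its call in 4 fits, without replicates 2 or 3 of either breed (0.84 to 1.28). PROX1, a transcription factor of lymphatic endothelium and slow muscle fibres, stood at 1020.2, 1419.9 and 1068 in Angus libraries and at 505, 245 and 94.2 in Chinese Simmental libraries, and its log2 fold change of 2.06 ± 0.59 went to 2.79 without Chinese Simmental replicate 1. CABLES1, which links CDKs to tyrosine kinases, stood at 429.6, 646 and 514 in Angus libraries and at 124, 291 and 163 in Chinese Simmental libraries, and lost its call without Angus replicate 2 (1.29) or Chinese Simmental replicate 3 (1.35).

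Also higher in Angus, and named after their values were seen with RAPGEF3, were PRLR, the prolactin receptor, and NEXN, an actin-binding protein of muscle. PRLR, 2.45-fold higher in Angus, lost its call in 5 fits, all but that without Chinese Simmental replicate 3 (1.11 to 1.43). NEXN stood at 520.4, 741 and 353 normalised counts in Angus libraries and 210.3, 280.4 and 223 in Chinese Simmental libraries, yet its mean FPKM was 0.0809 in Angus and 0.199 in Chinese Simmental, and the log2 difference was -0.129 on the log2(FPKM + 1) scale. Its counts and FPKM thus gave opposite directions, and its call on counts was lost without replicate 1 (1.2) or 2 (0.88) of Angus, or without Chinese Simmental replicates 1 (1.09) or 3 (1.13).

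**Figure D3:**
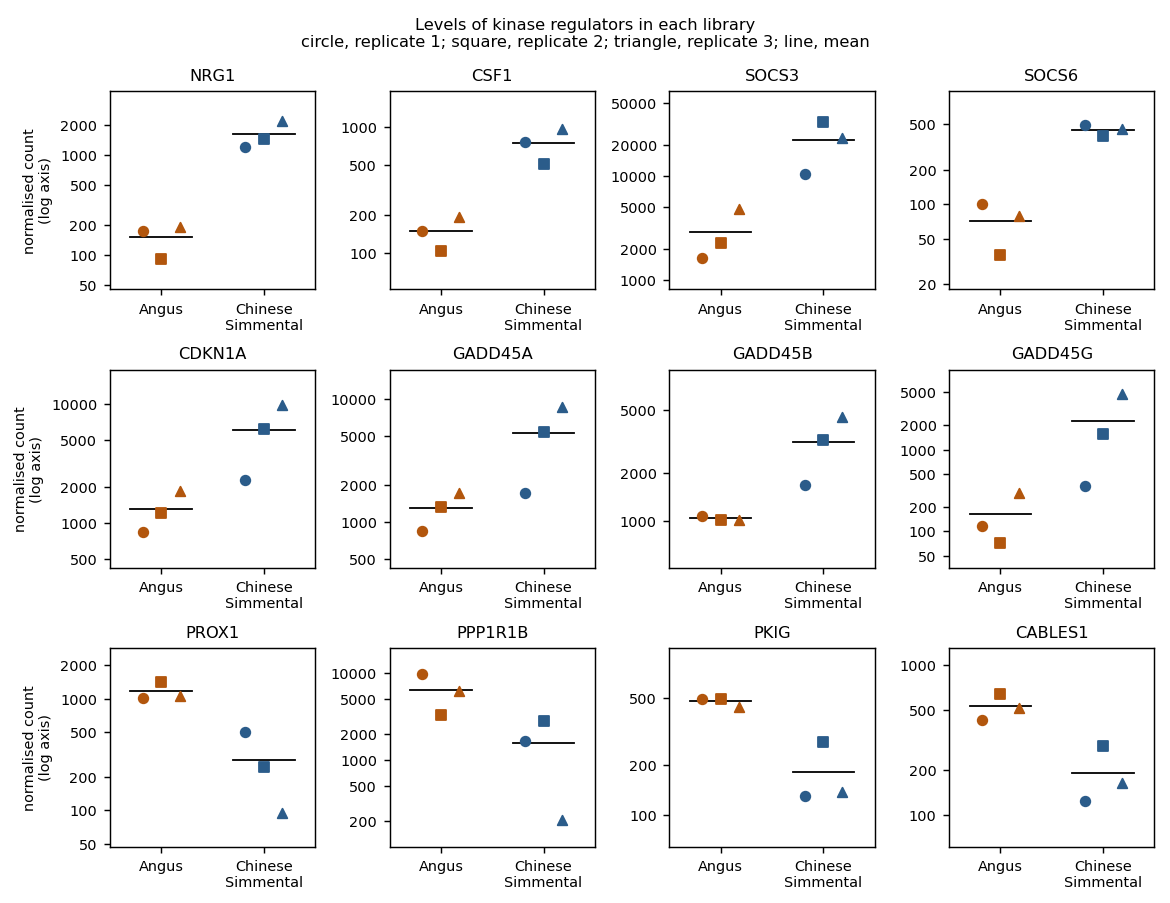
Normalised counts of 12 members in no kinase list, in each of the 6 libraries. Log axes differ between panels, with Angus left of Chinese Simmental and a line at the mean of 3 libraries. The 4 genes of the bottom row were higher in Angus, whereas the ligands, SOCS genes, CDKN1A and the GADD45 genes above them were higher in Chinese Simmental.

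The remaining genes in no kinase list were all higher in Chinese Simmental and were, apart from SLC11A1, VLDLR and THY1, named after their values were seen. SLC11A1, a metal transporter of phagosomes annotated with activation of kinases, stood at 1697, 526 and 1309 in Angus libraries and at 11523, 7135 and 16894 in Chinese Simmental libraries. VLDLR, a lipoprotein and reelin receptor, stood at 106, 115 and 299 in Angus libraries and at 1123, 1746 and 1723 in Chinese Simmental libraries, and its log2 fold change of -3.14 ± 0.54 went to -3.79 without Angus replicate 3. The related receptors SORL1, LRP6 and LRP5 were 4.23-fold, 2.98-fold and 2.16-fold higher. LRP5, a Wnt co-receptor, turned to 0.19 with TMM factors over the listed genes and lost its call without Angus replicates 2 (-1.03) or 3 (-1.06). THY1, a surface glycoprotein, had the largest log2 difference of all members, at 3.42, 19.98 and 7.88 in Angus libraries and 46.3, 252 and 1072 in Chinese Simmental libraries. Its log2 fold change was -5.48 ± 1.18, and stood at -3.86 without Chinese Simmental replicate 3 and at -6.32 without Angus replicate 2. CD24, a surface glycoprotein of B cells, granulocytes and epithelium, was 5.89-fold higher and went to -1.90 without Chinese Simmental replicate 3, from -2.56 ± 0.60. KAT2B, an acetyltransferase, and MVP, the major vault protein, were 3.97-fold and 2.82-fold higher and kept their calls throughout.

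PYCARD, the inflammasome adaptor, overlapped between breeds, with Chinese Simmental replicate 2 at 2998 below Angus replicate 1 at 3080.3, and lost its call without replicate 2 (-1.27) or 3 (-1.28) of Angus, or without Chinese Simmental replicate 1 (-1.03). EMP2, a membrane protein, lost its call without Angus replicate 3 (-2.0) or Chinese Simmental replicate 3 (-1.27, from -2.10 ± 0.67). AFAP1L2, an adaptor of Src, overlapped between breeds and lost its call in 4 fits, without replicate 1 (-1.14) or 3 (-1.28) of Angus, or without Chinese Simmental replicates 2 (-1.15) or 3 (-1.36), and stood at -2.10 without Angus replicate 2. SNX15, a sorting nexin, lost its call without Angus replicate 2 (-1.26). AKAP13, an anchor of protein kinase A, stood at 47898, 47882 and 47171 in Angus libraries and at 67729, 170645 and 139361 in Chinese Simmental libraries, the highest counts of all members, and lost its call without any Angus library (-1.41, -1.41 and -1.39) or Chinese Simmental replicate 2 (-1.12), and on the log2(FPKM + 1) scale (-0.46, adjusted p = 0.118, limma). CHP1, a calcium-binding partner of ion exchangers, was 2.23-fold higher and turned to 0.16 with TMM factors over the listed genes.

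The Chinese Simmental libraries did not move as 1 group. Among the 69 members higher in Chinese Simmental, replicate 1 was the lowest library of the breed for 46 (66.7%) and the highest for 10 (14.5%), and replicate 3 was the highest for 44. Over all 1492 listed genes called higher in Chinese Simmental, replicate 1 was lowest for 62.5% and highest for 16.1%, and replicate 3 was highest for 974. The members thus followed the table as a whole. On the log2 scale, replicate 1 minus the mean of the other Chinese Simmental libraries was lowest for THY1 (-3.48), GADD45G (-2.94), CCL5 (-2.68) and CAMKK1 (-2.67). It was highest for ROR2 (1.58), CDC42BPB (1.26) and PYCARD (1.08). In Angus, replicate 2 was the lowest library for 41 of these 69 genes, and for 823 of the 1492 listed genes. Replicate 1 was the lowest Chinese Simmental library for 1 of the 6 members in the list of receptor tyrosine kinases and for 5 of the 6 cytoplasmic tyrosine kinases. Whichever breed was higher, it was the lowest for 61% of the 82 members and 51.8% of all genes tested. No contrast is read from lists this short.

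**Figure D4:**
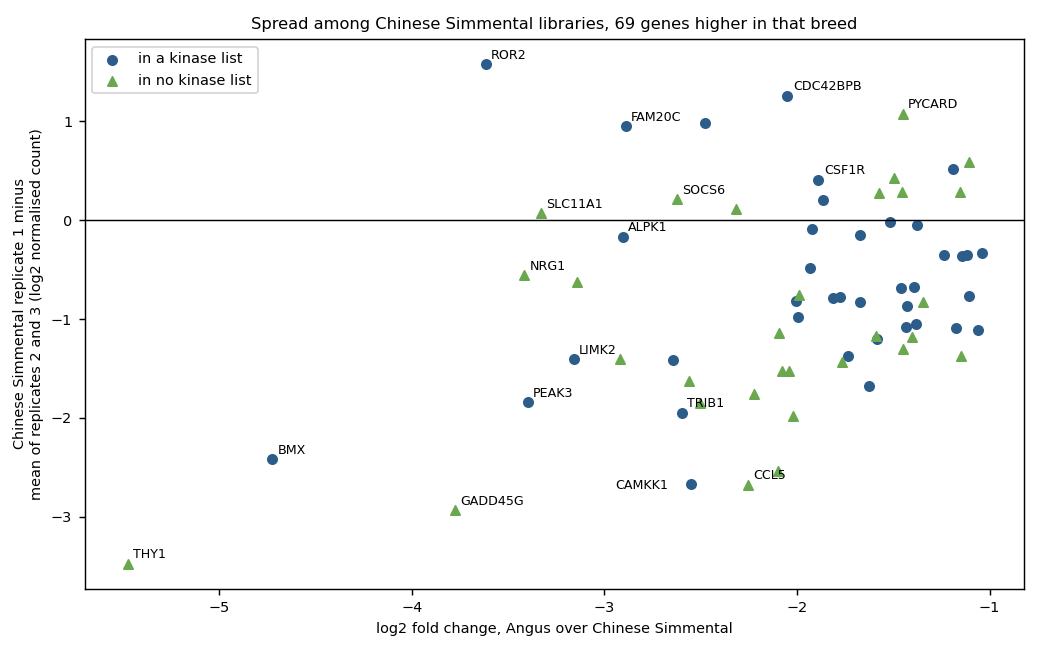
Difference between Chinese Simmental replicate 1 and the mean of replicates 2 and 3 on the log2 normalised count scale, against the log2 fold change of Angus over Chinese Simmental, for the 69 genes higher in Chinese Simmental, each point 1 gene. Most points lie below 0, where replicate 1 was the lower, and both axes use the same Chinese Simmental libraries, so no relation is read from the plot.

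Levels between genes can be set side by side only per length. Among the most abundant members higher in Chinese Simmental by mean FPKM was FES, at 1498 in Angus and 4084 in Chinese Simmental. The most abundant of those higher in Angus were PRAG1, at 115 in Angus and 38.2 in Chinese Simmental, and ERBB2, at 49.0 in Angus and 11.2 in Chinese Simmental. The ratio of counts to FPKM ranged from 2.0 for FES to 2234 for NEXN around a median of 111 over the members. The transcript length behind each FPKM value was not analysed here, so the order of levels between genes is uncertain. On both FPKM scales calls were also lost for CCL5, CDKN1C, LMTK2, LRP5, MAST2, RAPGEF3, STYK1 and WNK2, whose log2(FPKM + 1) differences were -1.61, -0.35, -0.92, -0.89, 0.94, 0.68, -0.11 and -0.86 in that order (limma, adjusted p = 0.0530 to 0.266).

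Partner genes of the kinases were taken from lists. Beside their counts, 75.0% of all genes tested were called higher in Chinese Simmental and 24.9% in Angus. Of 10 MAP kinase phosphatases 5 were in the table and all were higher in Chinese Simmental, among them DUSP1 at 27.6-fold, DUSP2 at 22.5-fold and DUSP6 at 6.38-fold. DUSP1 spread widely, at 19586, 164105 and 444712 in Chinese Simmental replicates 1 to 3 against 4559 to 10429 in Angus. DUSP2 stood at 9579, 38717 and 161430 in the same Chinese Simmental libraries against 2129 to 3942 in Angus. Of 15 STAT factors and SOCS inhibitors 7 were in the table, all higher in Chinese Simmental, among them STAT2 at 3.15-fold. Of 19 genes in the list of Toll and interleukin receptor adaptors and downstream regulators, 4 were in the table and higher in Chinese Simmental. MYD88, the adaptor that recruits IRAK kinases, was 4.06-fold higher. TNFAIP3, a member described above and no receptor adaptor, was also among them. Of 24 adaptors that recruit tyrosine kinases to antigen and Fc receptors 8 were in the table, 6 higher in Angus and 2 in Chinese Simmental. The 2 were TYROBP and FCER1G, adaptors of myeloid receptors, at 7.47-fold and 4.40-fold higher in Chinese Simmental, and of the 6 CD79B of the B cell receptor was 5.28-fold higher in Angus. Of 19 tyrosine phosphatases 3 were in the table and higher in Chinese Simmental, with PTPRE at 3.02-fold. Of 18 cyclins and CDK inhibitors 3 were in the table, CDKN1A, CDKN1C and CDKN2D, all higher in Chinese Simmental. Of 19 protein kinase A subunits, inhibitors and anchors, PKIG was higher in Angus and AKAP13 in Chinese Simmental.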

How the data were processed

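Libraries were built from 1 µg of total RNA with an Illumina mRNA kit, per the labels' protocols. HISAT2 and the build ARS-UCD1.2 are named in the submitters' processing notes. How reads were counted, with which annotation and strand setting, and how the authors tested are not stated. Per the file headers, the authors deposited a count and an FPKM value for every gene and library. Beside these the deposited table had the mean scaled signal per breed and the authors' own comparison (a log2 fold change, a p-value and its adjusted form). The table's 1 blank row was dropped.

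Size factors solved from the deposited breed means (0.801 to 1.17 in Angus, 0.951 to 1.09 in Chinese Simmental) scaled the counts. edgeR 4.0.16 under R 4.3.3 fitted breed alone to all listed genes that passed filterByExpr (minimum count 10), and the fit was first tried on simulated data. DESeq2 1.42.0, and limma 3.58.1 on log2(FPKM + 1) or log2(FPKM + 0.1), served as alternatives. Libraries of a breed differed by more than sampling noise. Libraries with the same number in their titles deviated together (r = 0.263, 0.150 and 0.245 for numbers 1, 2 and 3), as did Angus replicate 3 with Chinese Simmental replicate 2 (r = 0.208), and the labels give no reason for a pairing. The number was therefore fitted as a block in an alternative only, and all values in the text come from the fit without it unless the block is named.

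Members and lists were chosen with earlier results of these data known. Values in every library were given for the 8 largest non-overlapping differences in each direction with a mean FPKM of at least 1, the 3 smallest p per kinase list and the 2 highest mean FPKM in each direction, and at most 3 genes by smallest p were named per partner list, beside members described elsewhere. MAP2K2, MAPKAPK2, MAP4K4, PTK2B, JAK2, EGFR, LMTK2, STYK1, CAMKK1, DAPK1, ULK1, STK40, WNK2, TRIM24 and the members described as such in the text, CSF1, the SOCS genes and the CDK inhibitors included, were named after their values were seen. All 82 symbols matched the RefSeq table of another assembly, so no coordinates are printed. Levels of genes with paralogs or overlapping neighbours are uncertain, since reads can be split or shared. A few items are not reported here.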

Additional observations from a re-analysis of the deposited data

How the results depend on the processing

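All 82 members kept direction and call under DESeq2 with the same size factors and without the count filter. The counts of 13 and 69 called members became 12 and 69 with the replicate number as a block, where 1 member lost its call and no other call changed, and 10 and 60 with limma on log2(FPKM + 1), where the median log2 fold change went to -1.31 from -1.65. On log2(FPKM + 0.1) 10 and 61 were called. With TMM factors over the listed genes 13 calls went to Angus and 10 to Chinese Simmental, and the median went to -0.264, since factors taken over selected genes that mostly differ in 1 direction recentre them. Of the 82, 12 then turned, to 0.131 for BUB1, 0.273 for CDKN2D, 0.160 for CHP1, 0.278 for JAK2, 0.290 for LMTK2, 0.187 for LRP5, 0.231 for MAP2K2, 0.147 for MAP3K11, 0.237 for MAP4K4, 0.227 for MAPKAPK2, 0.0279 for STK38L and 0.345 for TRIM24. NEXN turned to -0.129 and -0.410 on the FPKM scales with pseudocounts of 1 and 0.1, and the cause was not tested. Over the 47 members with a kinase activity term of their own, 6 had the higher level in Angus and 41 in Chinese Simmental. With 1 library left out, 7 to 9 calls went to Angus and 50 to 66 to Chinese Simmental, with medians from -1.79 to -1.43, and no member turned. The selected table and 3 libraries per breed limit what can be read from these calls.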
